A study of Mus musculus with 24 samples.

Results

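The comparison described here is that of CRE-labelled against WT-labelled bone marrow-derived macrophages (BMDMs) that had received DMXAA, a small molecule that binds and activates mouse STING. The members were chosen by label: the macrophage libraries given DMXAA and numbered 1 or 2, that is 2 WT-labelled and 2 CRE-labelled libraries, 4 of the 24 libraries of the series. The 4 control macrophage libraries with the same numbers are given beside them. The question of the comparison is which genes STING deletion in myeloid cells changed when a STING agonist was present, and the genes are described by pathway. The WT label stands for cells of Tmem173 fl/fl mice and the CRE label for cells of Tmem173 fl/fl mice that also carried Lyz2-Cre ert2, a recombinase that is driven by the Lyz2 gene of myeloid cells and is active only with tamoxifen. The paper's methods describe tamoxifen injection of mice of both genotypes, but their account of the marrow cultures does not state it for the donors. The mice were on a C57BL/6N background, and marrow cells were grown into macrophages in medium with supernatant of L929 cells. The series text gives DMXAA at 40 µM and the methods give its doses by mass per volume, so the concentration is uncertain, and the exposure time of these libraries is not given in the sources used here. Nothing in the labels says that the libraries of 1 group came from different mice or cultures, so the p-values measure only the spread between these libraries, which may be technical.

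STING, the product of Tmem173, is a membrane protein of the endoplasmic reticulum that binds cyclic dinucleotides made by the DNA sensor cGAS. On activation it recruits the kinase TBK1, which phosphorylates the transcription factor IRF3 and switches on interferon-beta, and it also activates NF-kB, the factor behind many cytokine and chemokine genes. Secreted interferon then acts through its receptor, the kinases JAK1 and TYK2 and STAT and IRF factors on a large set of interferon-stimulated genes. Macrophages stimulated in this way are also known to change their lipid metabolism and to release chemokines that attract other leukocytes.

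The 4 DMXAA libraries held 16470157 to 18731402 counts and the 8 libraries together 16470157 to 18912887. Library values below are normalised CPM, that is read counts relative to the library size after TMM scaling, and a difference is the log2 fold change of CRE-labelled over WT-labelled libraries ± its standard error (SE), with 2 libraries a group. A gene was tested when its deposited FPKM was at least 1 in at least 2 of the 8 libraries, which left 11569 of the 54532 genes of the table, and called when its adjusted p (edgeR's quasi-likelihood test over all of these, Benjamini-Hochberg) was under 0.05. The macrophage markers were present: F4/80 (Adgre1) stood at 1031 and 769 normalised CPM in the WT-labelled and 856 and 842 in the CRE-labelled DMXAA libraries, and of 10 T, B and NK cell markers none passed the filter. The 10 macrophage markers, Lyz2 among them, summed to 15900 and 16200 in the WT-labelled and 11100 and 11300 in the CRE-labelled DMXAA libraries. In the controls the sums were 17800, 19500, 12400 and 12500 in the same order. The sum was thus lower in the CRE label in both settings, and Lyz2, described below, gives much of it. The set as a whole was not lower: the median difference over the 10 markers was -0.11 under DMXAA and 0.15 in control. WT-labelled replicate 2 stood apart in fibroblast markers, whose summed level over 16 genes was 1260 normalised CPM, against 91.4 in WT-labelled replicate 1 and 79.7 and 83.1 in the CRE-labelled libraries, and the same was seen in its control counterpart (1090 against 94.7 to 116 in the other 3). Summed dendritic cell markers, 10 genes, were 158 and 236 in the WT-labelled and 489 and 456 in the CRE-labelled DMXAA libraries, and 213, 222, 451 and 454 in the controls in the same order, a sum to which Itgax, described below, gives most. In bulk libraries fewer cells of a type cannot be told apart from less RNA per cell, and the part of any of these marker sets in the results was not tested. Values against each WT-labelled library are therefore given apart. The 4 macrophage libraries numbered 3 are not members by the rule, and they stand apart. Their 10 macrophage markers summed to 42.6 to 72.7 CPM of the library total, against 10600 to 22100 in the other 8, and their 16 fibroblast markers to 21100 to 29800. With them in the fit no gene was called, and 475 had an unadjusted p under 0.05, 406 of them among the genes called without them.

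Under DMXAA, 2227 of 11569 genes tested were called, 19.2% of them, with 1071 higher (9.26%) and 1156 lower (9.99%) in CRE-labelled BMDMs. The median difference was -1.23 over the genes called lower and 1.03 over those called higher, and 253 genes were lower and 120 higher by 2 or more on the log2 scale. No called gene had overlapping libraries: both CRE-labelled libraries lay above both WT-labelled ones in 3810 genes (32.9%) and below them in 3488 (30.1%), called or not. In the control libraries the same comparison called 5 genes (0.0432%), all higher in the CRE label, with 793 at an unadjusted p under 0.05. That count rests on the libraries too: it was 2 without any single CRE-labelled library, 215 without WT-labelled control replicate 1 and 126 by DESeq2. The genes called lower under DMXAA had a median control difference of -0.12 and those called higher of 0.11. Whether the difference between labels itself differed between DMXAA and control was not tested.

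The number of calls rests on how the spread is estimated. The biological coefficient of variation was 24.5% over all 8 libraries, 35.0% in the 4 WT-labelled and 5.19% in the 4 CRE-labelled libraries, and the CRE-labelled DMXAA pair differed by a chi-square of 5.35 per gene, against 77.2 for the WT-labelled pair. When the 4 WT-labelled libraries alone set the spread, no gene passed the adjusted threshold, while 2235 genes had an unadjusted p under 0.05, among them 2052 of the 2227, in the same direction. Without CRE-labelled DMXAA replicate 1 or 2 the calls fell to 316 and 313, and 2155 of the 2227 still had an unadjusted p under 0.05 in the same direction. Without CRE-labelled control replicate 1 or 2, which inform the same spread, 1187 and 1183 were called. Calls within lists shrank in the same way without CRE-labelled DMXAA replicate 1 or 2, to 6 and 5 of 52 antiviral effectors, 7 and 7 of 30 NF-kB genes, 5 and 5 of 10 CC chemokine genes and 2 and 2 of 25 MHC class I genes, while the 4 CXC chemokine genes called lower were 4 in both.

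The genes were read through 46 lists of pathways and gene families, which held 1112 genes of the table, of which 985 were tested and 330 called. In the plot of calls by list, innate immune lists lie to the left and sterol synthesis to the right, while ribosomal protein and respiratory chain genes held fewer calls in either direction than all genes tested.

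**Figure D1:**
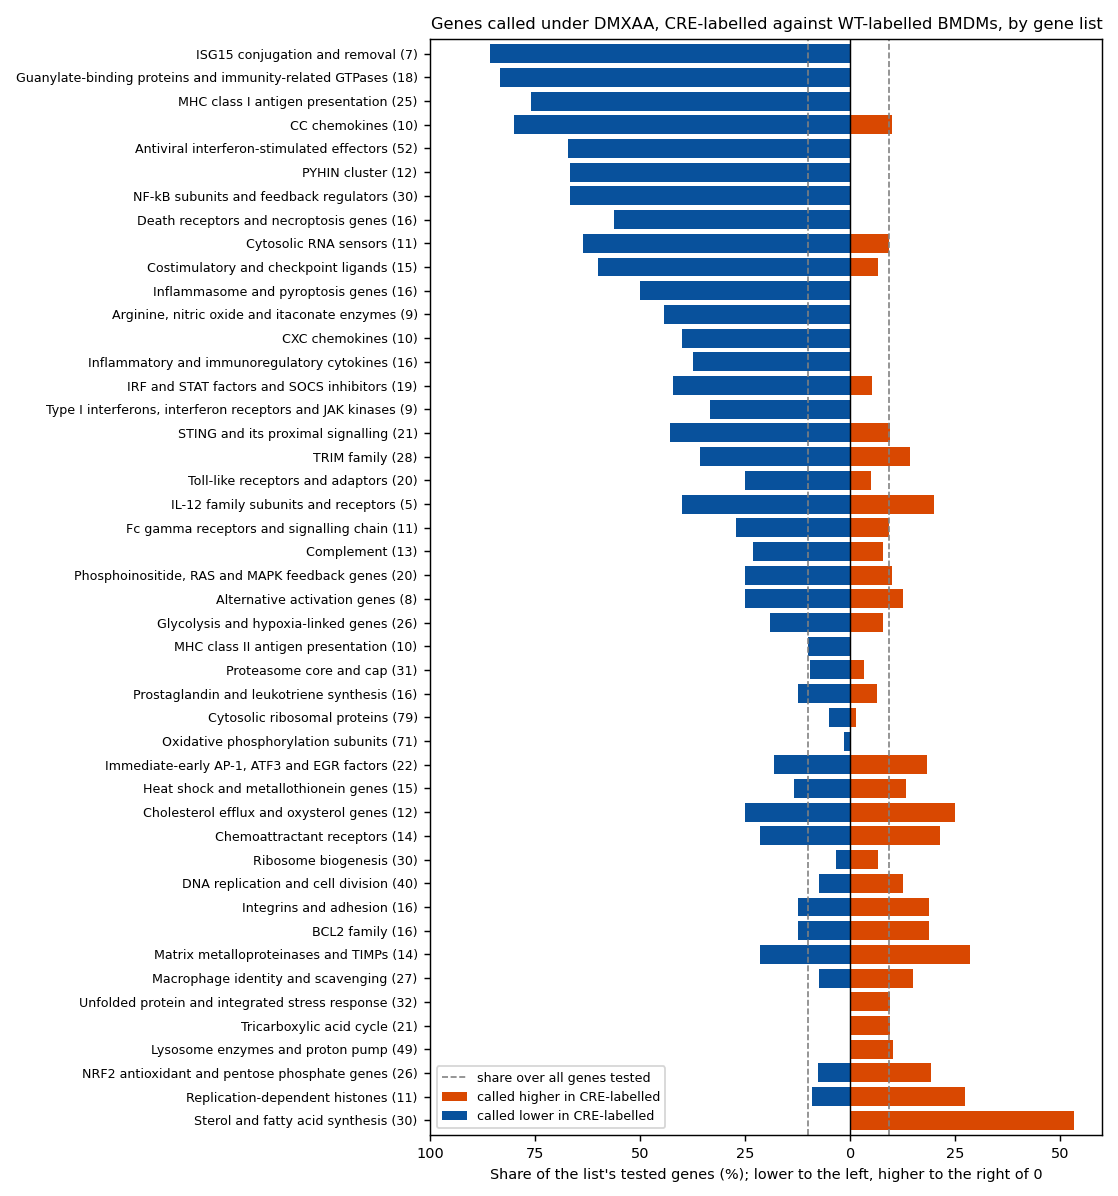
Share of each list's tested genes called lower (blue, left of 0) or higher (orange, right of 0) in CRE-labelled BMDMs under DMXAA, in percent, with the number of tested genes after each list's name. Dashed lines mark the shares over all 11569 genes, 9.99% lower and 9.26% higher. In 30 of the 46 lists lower calls outnumbered higher ones and in 12 the reverse was true.

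Tmem173, the targeted gene (ENSMUSG00000024349, GRCm38 chromosome 18, 35733678 to 35740554, minus strand), stood at 65.5 and 47.8 normalised CPM in the WT-labelled and 19.6 and 21.8 in the CRE-labelled DMXAA libraries, a difference of -1.45 ± 0.24 (SE; adjusted p = 0.00921). In the control libraries it stood at 32.5 and 22.4 against 22.8 and 19.1, where the groups overlap. The transcript remained in the CRE-labelled libraries at a level close to both controls, so it does not check the labels. Lyz2, the gene whose promoter drives the recombinase, was lower in both settings: 7272 and 9542 against 3267 and 3488 normalised CPM under DMXAA (-1.32 ± 0.17, adjusted p = 0.00431), and 11680 and 14000 against 6353 and 6439 in control, where it was not called.

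Of the 22 genes listed for STING and its proximal signalling, 21 were tested, 9 were called lower and 2 higher, which became 5 and 6 when library totals replaced TMM factors. The genes of the kinases that STING recruits were among the lower ones. Tbk1 stood at 318 and 280 normalised CPM in the WT-labelled and 144 and 143 in the CRE-labelled libraries (-1.05 ± 0.11, adjusted p = 0.00236). Ikbke, which encodes the related kinase IKK-epsilon, stood at 200.5 and 141 against 48.8 and 43.2 (-1.89 ± 0.19), and Tank, an adaptor of both kinases, at 245 and 231 against 60.8 and 66.8 (-1.90 ± 0.28). In the controls Tbk1 stood at 94.9 to 105 normalised CPM and Ikbke at 34.9 to 47.7, so that the CRE-labelled DMXAA levels lay closer to the controls than to the WT-labelled DMXAA levels. The genes for cGAS (Mb21d1, -0.59 ± 0.33) and IRF3 (Irf3, 0.14 ± 0.13) were not called. Mavs, the adaptor of RNA sensors, and Nlrc3, an inhibitor of STING signalling, were the 2 called higher, a share near the 9.26% over all genes.

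Interferon-beta was nearly absent from the CRE-labelled libraries. Ifnb1 (chromosome 4, 88522025 to 88522774) held 21 and 208 counts in the WT-labelled and 0 and 1 in the CRE-labelled DMXAA libraries, a ratio of 282 over summed counts scaled to library size with a 95% exact binomial interval of 50.1 to 11200 for counting error only (adjusted p = 0.0374 in the fit). The WT-labelled libraries themselves were far apart, at 1.66 and 13.1 normalised CPM, and all 4 controls were at 0. Of 9 tested members of the list, which includes interferon receptors and JAK kinases, 3 were called lower, Ifnb1, Jak2 and Tyk2, and none higher. Jak2 fell from 571 and 377 to 142 and 137 normalised CPM (-1.76 ± 0.21, adjusted p = 0.00353) and Tyk2 from 386 and 188 to 107 and 93.6 (-1.51 ± 0.38, adjusted p = 0.0366). The receptor gene Ifnar1, at 210 and 192 against 248 and 245, was not called.

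Among IRF and STAT factors and SOCS inhibitors, 8 of 19 tested genes were called lower and 1 higher. Irf1, an early interferon and NF-kB target, stood at 677 and 725 normalised CPM in the WT-labelled and 155 and 171 in the CRE-labelled libraries (-2.10 ± 0.15, adjusted p = 0.00111). Irf7, which amplifies the interferon response, stood at 3015 and 2199 against 1367 and 1440 (-0.89 ± 0.22, adjusted p = 0.0364). The groups did not overlap in either gene, and the CRE-labelled level of Irf7 lay far above the 5.03 to 9.10 of the 4 controls. The feedback inhibitors moved more: Socs1 stood at 217 and 112 against 10.4 and 10.6 (-3.97 ± 0.47) and Socs3 at 25.5 and 46.7 against 2.58 and 2.31 (-3.88 ± 0.72). Of the factors that carry the signal of the interferon receptor, Irf9 was lower (166 and 167 against 104 and 100.1, -0.71 ± 0.12, adjusted p = 0.0112), whereas Stat2 (1366 and 773 against 690 and 631, -0.70 ± 0.33, adjusted p = 0.188) did not pass the test.

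The antiviral effectors of the interferon response were lower as a group but far from absent. Of 54 listed genes 52 were tested, 35 were called lower and none higher, with a median difference of -1.18 (0.01 over all genes tested) and of -1.27 and -0.86 against WT-labelled replicates 1 and 2. The median in the control libraries was -0.10. Ifit1, which binds viral RNA caps (chromosome 19, 34640871 to 34650009), stood at 4221 and 4564 normalised CPM in the WT-labelled and 917 and 914 in the CRE-labelled libraries (-2.26 ± 0.38, adjusted p = 0.00955), against 1.59 to 4.67 in the controls. Oasl1, a 2'-5'-oligoadenylate synthetase-like protein, stood at 2140 and 2089 against 259 and 266 (-3.01 ± 0.13, adjusted p = 0.000529). Rsad2, which makes an antiviral nucleotide, stood at 22820 and 16000 against 3205 and 3069 (-2.63 ± 0.49), and its genomic neighbour Cmpk2 at 15200 and 10190 against 2433 and 2384 (-2.40 ± 0.20). These 4 genes were named by a rule that required a call without overlap, and in each both CRE-labelled libraries lay above all 4 controls.

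ISG15 is a ubiquitin-like protein that is attached to other proteins during viral infection. Isg15 stood at 2535 and 2531 normalised CPM against 799 and 892 (-1.58 ± 0.43, adjusted p = 0.0462), close to the threshold, and 6 of the 7 genes of ISG15 conjugation and removal were called lower. Usp18, which removes ISG15 and restrains the interferon receptor, stood at 1595 and 1261 against 324 and 348 (-2.09 ± 0.29). Of 11 cytosolic RNA sensor genes 7 were called lower, among them Ifih1, which encodes MDA5, at 1726 and 1120 against 463 and 441 (-1.66 ± 0.26), and 1 higher, Mavs. The 1 higher call, of the adaptor gene Mavs, is a share near the 9.26% over all genes.

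Guanylate-binding proteins and immunity-related GTPases attack vacuoles and membranes of intracellular microbes. All 18 tested members of their list had both CRE-labelled libraries below both WT-labelled ones and 15 were called lower, with a median of -1.69. Gbp5 stood at 2622 and 1600 normalised CPM against 233 and 221 (-3.22 ± 0.37, adjusted p = 0.00283), Gbp4 at 226 and 142 against 19.3 and 16.6 (-3.36 ± 0.28), and Iigp1 at 1316 and 627 against 140.1 and 141 (-2.79 ± 0.39). The related Tgtp1 stood at 153 and 70.8 against 8.51 and 7.81, and reads of this gene and of its near-identical copy may be shared. In every one of these WT-labelled replicate 1 was the higher of its pair, while the CRE-labelled pair nearly coincided.

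The PYHIN genes, a cluster of interferon-inducible sensors of nucleic acid on chromosome 1, followed the same course: of 15 listed genes 13 were in the table and 12 tested, all 12 were lower in both CRE-labelled libraries and 8 were called. Ifi205 stood at 1168 and 688 normalised CPM against 166 and 169 (-2.47 ± 0.25) and Aim2, the inflammasome DNA sensor, at 236 and 175 against 68.0 and 65.8 (-1.62 ± 0.17). Members of this cluster are close in sequence, so reads may be split among them. In the TRIM family of ubiquitin ligases, by contrast, 10 of 28 tested genes were called lower and 4 higher, with a median of -0.17. The lower ones included Trim30c (299 and 184 against 22 and 18, -3.59 ± 0.35), Trim30b (-2.39 ± 0.32) and Trim21, an intracellular antibody receptor (355 and 237 against 77.8 and 70.4, -2.00 ± 0.24), whereas Trim8, Trim27, Trim35 and Trim37 were higher.

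**Figure D2:**
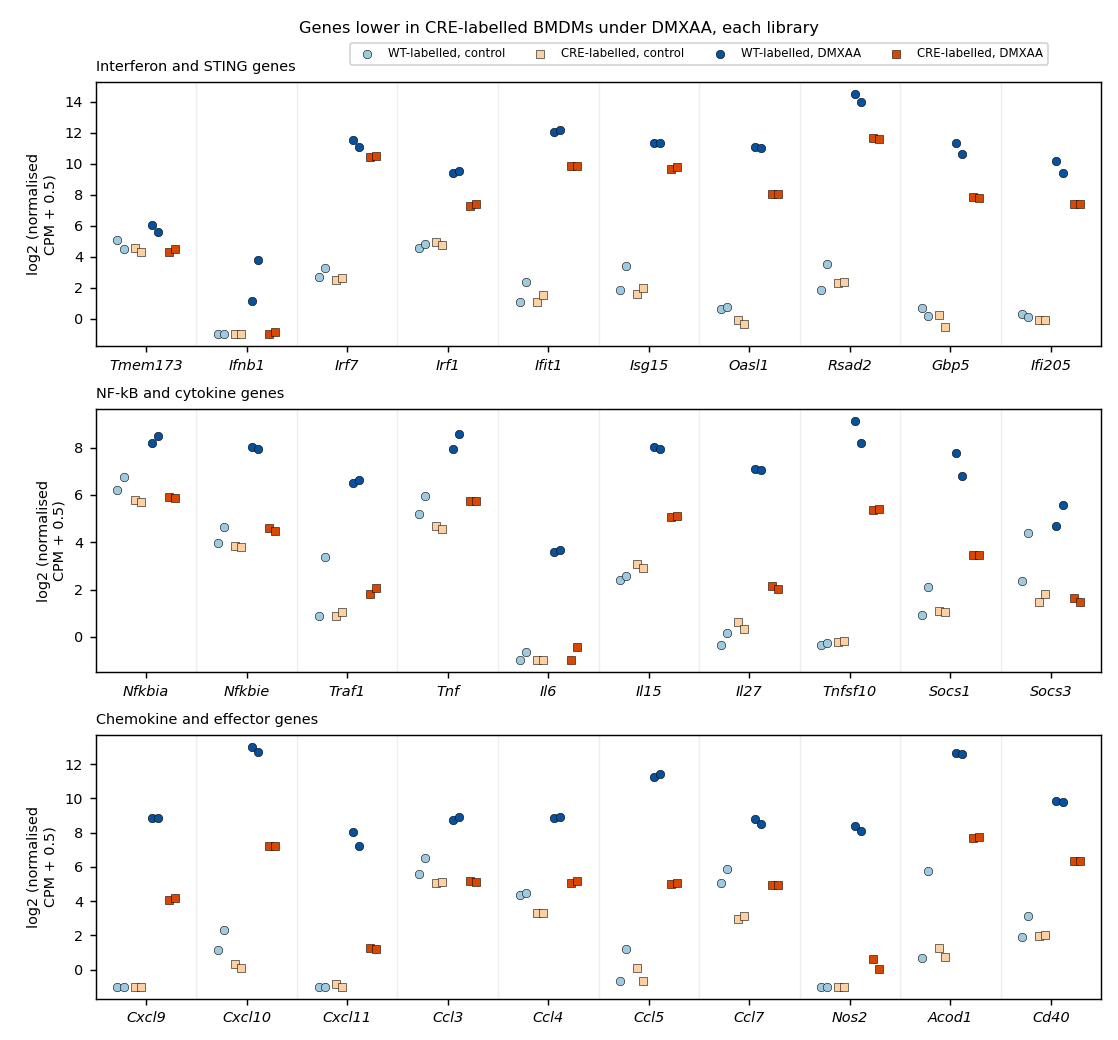
Level of 30 named genes in each of the 8 libraries, as log2 of normalised CPM plus 0.5, by group (circles WT-labelled, squares CRE-labelled, pale control, dark DMXAA); each point is 1 library. The 30 genes were picked among those called lower, so the CRE-labelled DMXAA points lie below the WT-labelled DMXAA points by choice. For Ifit1, Rsad2 or Cxcl10 the CRE-labelled DMXAA points lie well above the controls.

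The promoters of 6 genes are printed with the sequence motifs through which these programs are known to be switched on. Only genes whose promoter held a match could be printed, so a match in each of the 6 was fixed by the choice. Among such genes these were taken because the results turn on them: the interferon gene itself, interferon-stimulated effectors, and NF-kB-linked cytokine genes. Each run is the 250 bases before the transcription start from RefSeq (GRCm38.p6), in the direction of transcription, with capitals marking matches on either strand to the interferon-stimulated response element (GAAA, any 2 bases, GAAA) or to the kB motif (GGG, any 5 bases, CC).
Ifnb1 (chr4:88522795-88523044, minus strand): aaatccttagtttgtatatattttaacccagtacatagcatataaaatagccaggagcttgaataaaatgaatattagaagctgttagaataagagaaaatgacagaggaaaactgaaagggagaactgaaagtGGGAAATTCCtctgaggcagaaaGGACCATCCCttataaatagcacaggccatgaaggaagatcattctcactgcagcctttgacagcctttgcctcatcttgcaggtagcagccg
Ifit1 (chr19:34640639-34640888, plus strand): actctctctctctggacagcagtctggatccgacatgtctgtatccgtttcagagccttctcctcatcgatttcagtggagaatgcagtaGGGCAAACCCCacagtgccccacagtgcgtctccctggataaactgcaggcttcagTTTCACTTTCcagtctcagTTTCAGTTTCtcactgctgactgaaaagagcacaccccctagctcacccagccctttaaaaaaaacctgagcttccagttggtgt
Isg15 (chr4:156200819-156201068, minus strand): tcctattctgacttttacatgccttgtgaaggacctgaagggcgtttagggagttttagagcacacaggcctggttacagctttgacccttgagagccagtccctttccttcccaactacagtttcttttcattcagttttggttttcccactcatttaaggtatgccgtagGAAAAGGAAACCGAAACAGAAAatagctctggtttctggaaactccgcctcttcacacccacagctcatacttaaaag
Cxcl10 (chr5:92348890-92349139, minus strand): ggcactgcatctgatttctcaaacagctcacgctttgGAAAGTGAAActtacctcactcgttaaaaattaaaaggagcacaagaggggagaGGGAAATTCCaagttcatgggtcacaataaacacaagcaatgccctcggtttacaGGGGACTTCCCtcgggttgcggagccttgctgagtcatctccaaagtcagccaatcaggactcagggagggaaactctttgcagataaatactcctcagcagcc
Il6 (chr5:30012864-30013113, plus strand): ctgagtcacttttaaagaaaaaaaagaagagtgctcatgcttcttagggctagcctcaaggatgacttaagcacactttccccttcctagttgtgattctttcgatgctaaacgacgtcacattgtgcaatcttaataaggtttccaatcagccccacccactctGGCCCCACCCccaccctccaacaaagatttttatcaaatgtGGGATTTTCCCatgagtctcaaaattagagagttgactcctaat
Nfkbia (chr12:55492648-55492897, minus strand): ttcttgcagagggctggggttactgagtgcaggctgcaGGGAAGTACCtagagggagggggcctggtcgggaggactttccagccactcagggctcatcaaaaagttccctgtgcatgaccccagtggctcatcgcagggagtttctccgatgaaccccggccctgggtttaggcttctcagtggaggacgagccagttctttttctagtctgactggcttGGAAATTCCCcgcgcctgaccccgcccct
In Ifnb1 and Il6 the capitals are kB motifs, in Isg15 they are 3 overlapping response elements, and in Cxcl10 a response element 203 bases from the start is followed by kB motifs. Over promoter windows of 300 bases (250 before and 50 after the start), available for 8321 of the tested genes, the response element was found in 7.67% of the genes called lower, 1.21% of those called higher and 3.14% of those not called, and in 3.49% of all 27025 promoters of the table. It was found in 10 of 11 windows of the guanylate-binding protein list, 8 of 11 of the PYHIN cluster and 17 of 38 of the antiviral effectors. The kB motif was common everywhere, in 66.3% of the windows of genes called lower, 72.4% of those called higher, 68.0% of those not called and 50.4% of all promoters. A match in letters is a description of the window and not evidence of binding.

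NF-kB subunits and their feedback regulators were mostly lower. All 30 listed genes were tested, 20 were called lower and none higher, and 22 had both CRE-labelled libraries below both WT-labelled ones, with a median of -1.07 under DMXAA and -0.25 in control. The subunit genes Nfkb1 (358 and 287 normalised CPM against 128 and 122, -1.36 ± 0.15, adjusted p = 0.00254) and Rela (314 and 294 against 138 and 133, -1.17 ± 0.16, adjusted p = 0.00481) were both called. The inhibitors that NF-kB induces against itself moved further: Nfkbia stood at 297 and 364 against 60.2 and 58.8 (-2.47 ± 0.21) and Nfkbie at 264 and 243 against 23.9 and 21.8 (-3.47 ± 0.23). Traf1, an adaptor of TNF receptors, stood at 89.4 and 97.7 against 2.97 and 3.65 (-4.82 ± 0.81), and Birc3, a ubiquitin ligase that protects from TNF-driven death, at 169 and 125 against 31.5 and 31.8 (-2.22 ± 0.20). For Nfkbia the CRE-labelled DMXAA levels lay within the range of the controls, 51.3 to 108.

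Of the cytokine genes, 16 of 22 were tested and 6 called lower, none higher, with a median of -1.98. Tnf stood at 244 and 378 normalised CPM in the WT-labelled and 53.4 and 53.4 in the CRE-labelled DMXAA libraries (-2.54 ± 0.31, adjusted p = 0.00348), against 23.2 to 62.2 in the controls. Il6, a gene of low level in these cells, held 144 and 194 counts against 0 and 4, a ratio of 104 with a 95% interval of 40.3 to 384. Il15, a growth factor of NK and memory T cells, stood at 257 and 247 normalised CPM against 32.8 and 34.5 (-2.91 ± 0.13, adjusted p = 0.000529), and Tnfsf10, which encodes the death ligand TRAIL, at 566 and 298 against 40.2 and 41.7 (-3.40 ± 0.30). Il1b missed the filter with 16 and 12 counts against 1 and 2, so that interleukin-1-beta transcript was near the detection limit in both labels.

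The IL-12 family joins subunits in pairs: Il27 encodes the p28 subunit of IL-27 and Il12b the p40 subunit of IL-12 and IL-23. Il27 (chromosome 7, 126589010 to 126594941) stood at 137 and 131 normalised CPM in the WT-labelled and 3.98 and 3.59 in the CRE-labelled libraries (-5.14 ± 0.25, adjusted p = 0.000531), a 35.3-fold difference, and at 0.283 to 1.06 in the controls. Il12b missed the filter, with 28 and 19 counts against 1 and 2, a ratio of 19.3 with an interval of 6.21 to 96.9. Il6st, which encodes gp130, a receptor subunit shared by IL-27 and IL-6, was called higher (80.5 and 69.5 against 149 and 135, 0.92 ± 0.20, adjusted p = 0.0235). The ligand and the receptor chain thus moved in opposite directions.

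Chemokine genes held some of the largest differences. Of 10 tested CXC chemokine genes 4 were called lower. Cxcl10 (chromosome 5, 92346638 to 92348889) encodes a ligand of CXCR3, a chemokine receptor found on T cells. It stood at 8220 and 6651 normalised CPM in the WT-labelled and 151 and 148 in the CRE-labelled libraries (-5.64 ± 0.41, adjusted p = 0.00111), a 49.9-fold difference. Cxcl9, another CXCR3 ligand gene, followed at 454 and 461 against 16.0 and 17.8 (-4.76 ± 0.15). The related Cxcl11 stood at 266 and 148 against 1.90 and 1.85 (-6.78 ± 0.41). Cxcl11 is annotated as a polymorphic pseudogene, so its transcript does not show that a ligand was made. Cxcl16 was lower by less (529 and 456 against 170.2 and 179, -1.5 ± 0.17). The neutrophil attractants Cxcl1 (0.395 and 3.40 against 0.168 and 0.347) and Cxcl2 (4.98 and 35.2 against 2.63 and 1.10) were not called, and their level in WT-labelled replicate 2 stood apart, in the controls as well (36.7 for Cxcl2, against 2.96 to 3.21 in the other 3).

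Of 10 tested CC chemokine genes 8 were called lower and 1 higher, Ccl6, with a median of -2.82 under DMXAA and -1.28 in control. Ccl5, which attracts T cells and monocytes, stood at 2454 and 2729 normalised CPM against 31.8 and 33.1 (-6.32 ± 0.68, adjusted p = 0.00236), a 79.9-fold difference. Ccl4 stood at 461 and 488 against 32.9 and 35.8 (-3.79 ± 0.13, adjusted p = 0.000222) and Ccl3 at 426 and 481 against 36.2 and 34.8 (-3.67 ± 0.31). The monocyte attractants were lower as well, Ccl7 at 439 and 369 against 30.4 and 30.9 (-3.72 ± 0.29) and Ccl2 at 476 and 471 against 79.8 and 82.4 (-2.55 ± 0.17). In the controls Ccl7 was also lower in the CRE label, at 7.25 and 8.32 against 32.3 and 57.4, without being called (-2.52, adjusted p = 0.0797). So were Ccl2, at 25.5 and 27.4 against 68.5 and 93.8 (-1.62, adjusted p = 0.0578), and Ccl4, at 9.31 and 9.27 against 19.6 and 21.4 (-1.14, adjusted p = 0.0578). Ccl3 stood at 32.3 and 34.3 against 47.4 and 90.9 (-1.05, adjusted p = 0.55), and none of these was called. The Ccl5 controls overlapped, at 0.582 and 0.143 against 0.141 and 1.77.

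Chemoattractant receptors, in contrast, were split, with 3 of 14 tested genes called lower and 3 higher. Ccrl2, a chemerin receptor, stood at 925 and 936 normalised CPM against 60.8 and 60.4 (-3.94 ± 0.79), and Fpr2, a receptor for formyl peptides, at 24.3 and 20.5 against 2.80 and 2.78 (-3.00 ± 0.58). Gpr183, which guides cells along oxysterol gradients, stood at 2.29 and 2.02 against 14.3 and 15.4 (2.79 ± 0.44, adjusted p = 0.00775) and at 26.2 to 63.5 in the controls. Cxcr4 was higher too (39.7 and 49.6 against 104 and 103, 1.21 ± 0.23).

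The enzymes of macrophage effector metabolism include the gene with one of the largest differences of all. Nos2 (chromosome 11, 78920787 to 78960254), the inducible nitric oxide synthase, stood at 333 and 272 normalised CPM in the WT-labelled and 1.01 and 0.521 in the CRE-labelled DMXAA libraries, the latter from at most 18 counts (-8.61 ± 0.35, adjusted p = 0.00111), and at 0 in all 4 controls. Acod1, which makes itaconate, stood at 6306 and 6246 against 208 and 211 (-4.90 ± 1.36, adjusted p = 0.0486), and its WT-labelled control replicate 2 held 53.3 where the other 3 controls held 1.08 to 1.91. Slc7a2, an arginine transporter, stood at 552 and 445 against 74.0 and 66.2 (-2.83 ± 0.23), and Gch1, which makes the cofactor of nitric oxide synthase, at 361 and 292 against 135 and 139.9 (-1.25 ± 0.21). Of the 9 tested genes of the list 4 were called lower and none higher.

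Antigen presentation by MHC class I was lower as a group. All 25 listed genes were tested, 19 were called lower and none higher, with a median of -0.96 under DMXAA and 0.12 in control. H2-K1, a classical class I heavy chain, stood at 2971 and 2617 normalised CPM against 1311 and 1410 (-1.04 ± 0.13), and B2m, its light chain, at 4001 and 4088 against 2429 and 2658 (-0.67 ± 0.17, adjusted p = 0.0404). Tap1, the peptide transporter, stood at 1635 and 1254 against 574 and 596 (-1.30 ± 0.25). The Qa-type genes changed most, with H2-Q6 at 214 and 126 against 11.9 and 11.5 (-3.86 ± 0.81) and H2-Q4 at 629 and 513 against 134 and 140.2 (-2.06 ± 0.29), although these genes are near copies of each other and may share reads.

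The class II pathway did not follow. Of 10 tested genes 1 was called lower, its transactivator Ciita, near the 9.99% over all genes, with a median of 0.13. Cd74, the invariant chain, stood at 68.3 and 77.8 normalised CPM against 84.4 and 92.2 (0.27 ± 0.16, adjusted p = 0.275), and H2-Ab1 at 19.6 and 20.7 against 17.4 and 19.2. In the controls the median of the list was 0.89 and Cd74 stood at 38.2 and 49.8 against 99.1 and 97.6, without a call. Costimulatory and checkpoint ligands were again mostly lower, 9 of 15 tested against 1 higher, Vsir. Cd40 stood at 915 and 868 against 79.1 and 82.3 (-3.46 ± 0.37, adjusted p = 0.00233), Cd86 at 287 and 350.2 against 46.4 and 44.1 (-2.81 ± 0.58), and Icam1, the adhesion ligand of leukocyte integrins, at 836 and 418 against 44.8 and 48.2 (-3.75 ± 0.34).

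Among other sensors, 5 of 20 tested genes of Toll-like receptors and their adaptors were called lower and 1 higher, Tlr13. Tlr2 stood at 820.4 and 828 normalised CPM against 59.4 and 63.0 (-3.75 ± 0.31), Tlr3 at 673 and 336 against 134 and 118 (-2.00 ± 0.37), and Tlr9 at 131 and 63.6 against 26.7 and 21.1 (-2.03 ± 0.35). Of 16 inflammasome and pyroptosis genes 8 were called lower and none higher, among them Nlrp3 (115 and 143 against 19.9 and 21.4, -2.65 ± 0.23) and Casp4, the caspase that senses lipopolysaccharide (327 and 262 against 67.7 and 70.6, -2.09 ± 0.39).

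Death pathways were lower too, with 9 of 16 tested genes of death receptors and necroptosis called lower and none higher. Fas stood at 26.1 and 21.1 normalised CPM against 1.90 and 1.97 (-3.60 ± 0.46, adjusted p = 0.00427), Daxx at 1056 and 909 against 286 and 294 (-1.76 ± 0.13), and Mlkl, the pore former of necroptosis, at 357 and 361 against 144 and 143 (-1.33 ± 0.24). In the BCL2 family 3 of 16 tested genes were called higher and 2 lower, the latter near the 9.99% over all genes. Bcl2l1, which encodes the survival factor BCL-XL, was higher (87.6 and 100.1 against 217 and 228, 1.24 ± 0.12, adjusted p = 0.00169), whereas Bid, a death promoter, was lower (164 and 205 against 71.2 and 72.4, -1.36 ± 0.22).

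Genes of sterol and fatty acid synthesis formed the clearest higher group. Of 32 listed genes 30 were tested, 16 were called higher and none lower, with a median of 0.88 under DMXAA, of 1.02 and 0.70 against WT-labelled replicates 1 and 2, and of 0.20 in control. Sqle, squalene epoxidase, stood at 16.4 and 25 normalised CPM in the WT-labelled and 72.8 and 70.1 in the CRE-labelled DMXAA libraries (1.78 ± 0.25, adjusted p = 0.00543), and at 92.6 to 135 in the controls. Dhcr7, which makes cholesterol in the last step, stood at 7.27 and 6.11 against 30.7 and 28.1 (2.14 ± 0.31), Stard4, a sterol carrier, at 11.1 and 10.3 against 50 and 46.1 (2.17 ± 0.31), and Scd2, a fatty acid desaturase, at 1.42 and 11.1 against 41.2 and 35.1 (2.58 ± 0.70, adjusted p = 0.0452). In all 4 genes the CRE-labelled DMXAA levels lay between the WT-labelled DMXAA levels and most controls. Srebf2, the master regulator of the pathway, was called higher (0.88 ± 0.22, adjusted p = 0.0370), at 112 and 93.2 against 198 and 179. Without CRE-labelled DMXAA replicate 1 or 2, 1 gene of the list was called.

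Sterol handling beyond synthesis was split, 3 of 12 tested efflux and oxysterol genes higher and 3 lower. Ch25h, which makes the antiviral oxysterol 25-hydroxycholesterol, stood at 115 and 60.9 normalised CPM against 1.57 and 1.68 (-5.75 ± 0.56, adjusted p = 0.00179), a 53.9-fold difference, and at 2.39 to 7.50 in the controls. Soat1, which esterifies cholesterol for storage, was higher (398 and 437 against 741 and 725, 0.81 ± 0.12), and the efflux pump Abca1 was not called (73.6 and 77.9 against 71.6 and 61.8). Gpr183, described above, is the receptor for an oxysterol made from that product, so that enzyme and receptor moved in opposite directions.

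**Figure D3:**
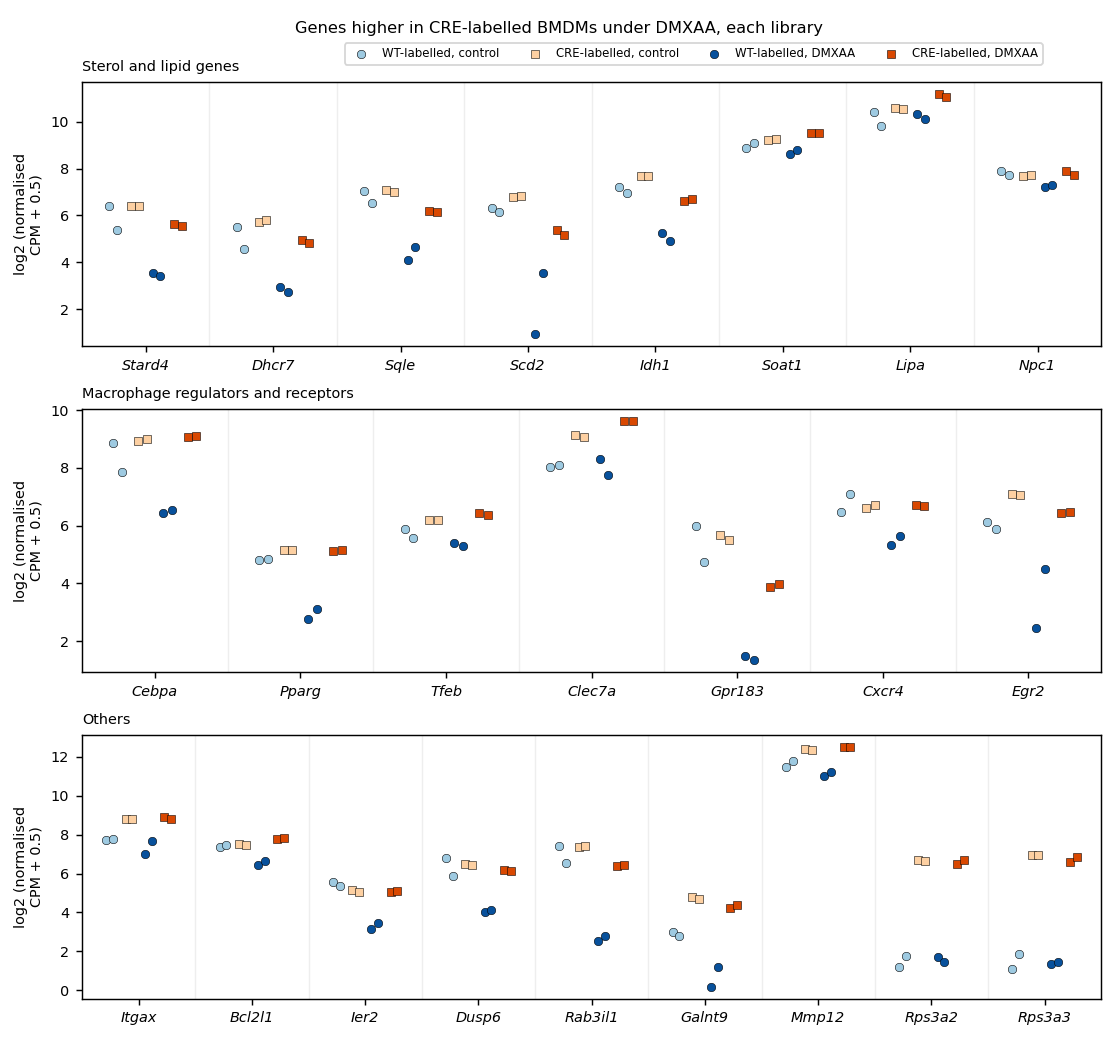
Level of 24 genes called higher in CRE-labelled BMDMs under DMXAA in each of the 8 libraries, as log2 of normalised CPM plus 0.5, drawn as in the plot of lower genes. For Cebpa, Pparg or Dusp6 the CRE-labelled DMXAA points lie near the controls and the WT-labelled DMXAA points below them, while Rps3a2 and Rps3a3 differ by label in both settings.

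Regulators of macrophage differentiation were among the higher genes. Cebpa, which encodes the myeloid factor C/EBP-alpha, stood at 87.1 and 93.7 normalised CPM in the WT-labelled and 538 and 549 in the CRE-labelled DMXAA libraries (2.59 ± 0.31, adjusted p = 0.00339), a 6.01-fold difference, and at 229.9 to 518 in the controls. The lipid-sensing nuclear receptor gene Pparg stood at 6.32 and 8.19 against 34.5 and 35.3 (2.26 ± 0.16, adjusted p = 0.00111). Over the list of macrophage identity and scavenging, 4 of 27 tested genes were called higher and 2 lower, where 9.26% and 9.99% of all genes tested were. Csf1r, the receptor for the macrophage growth factor, was not called (1638 and 1444 against 1884 and 1826, 0.27 ± 0.12).

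Lysosomal genes held 5 higher and no lower calls among 49 tested, with a median of 0.06. Atp6v0a1, a subunit of the proton pump, stood at 117 and 106 normalised CPM against 492 and 472 (2.11 ± 0.21, adjusted p = 0.00194), Tfeb, the factor that drives lysosome biogenesis, at 41.8 and 39.2 against 85.3 and 82.3 (1.05 ± 0.14), and Lipa, the lysosomal lipase, at 1286 and 1091 against 2296 and 2146 (0.90 ± 0.20). Higher calls in the list were thus about as frequent as the 9.26% over all genes. Antioxidant genes of the NRF2 program held 5 higher and 2 lower calls among 26, the latter near the 9.99% over all genes. Gclc, which starts glutathione synthesis, was higher (21.2 and 31.2 against 62.3 and 59.6, 1.22 ± 0.20), and Sod2, a mitochondrial enzyme that is also an NF-kB target, was lower (473 and 419 against 88.0 and 97.0, -2.27 ± 0.22).

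Surface and secreted molecules moved in both directions. Clec7a, the fungal receptor dectin-1, stood at 318 and 216 normalised CPM against 793 and 798 (1.58 ± 0.19, adjusted p = 0.00337) and was also higher in the controls (259 and 277 against 562 and 544) without being called. The integrin gene Itgax, at 128 and 201 against 482 and 448 (1.5 ± 0.21), behaved alike, with controls at 208 and 215 against 446 and 447. C3, the central complement component, was lower (1352 and 657 against 78.2 and 67.7, -3.78 ± 0.71), and so were Vcam1 (85.5 and 105 against 2.69 and 3.47, -4.95 ± 0.97) and Ptges, a prostaglandin E synthase (108 and 94.7 against 8.51 and 9.43, -3.49 ± 0.60). Among matrix proteases Mmp12 was higher (2070 and 2356 against 5823 and 5814, 1.40 ± 0.14) and Mmp14 lower (429.6 and 499.8 against 64.4 and 59.7, -2.91 ± 0.62).

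Immediate-early and growth-signal genes were split as well, 4 of 22 tested AP-1, ATF3 and EGR genes higher and 4 lower. Egr2 stood at 4.98 and 22.2 normalised CPM against 86.0 and 87.8 (2.66 ± 0.58) and Klf4 at 79.0 and 44.7 against 11.0 and 12.6 (-2.39 ± 0.39). Dusp6, a phosphatase induced by ERK signalling, stood at 15.8 and 16.9 against 72.9 and 70.3 (2.13 ± 0.30, adjusted p = 0.00566), near its controls of 57.3 to 112. In the feedback list that holds it, 2 of 20 tested genes were higher, near the 9.26% over all genes. In the same list 5 were lower, including Gadd45b and Gadd45g, stress genes of the p38 pathway.

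Of 71 tested respiratory chain genes 1 was called, Ndufs3, lower (72.1 and 76.8 normalised CPM against 48.2 and 54.8, -0.53 ± 0.12), and of 79 ribosomal protein genes 4 lower and 1 higher. Of 31 proteasome genes 3 were called lower, near the 9.99% over all genes, and 1 higher. Of 32 genes of the unfolded protein and integrated stress response 3 were called higher, about as frequent as the 9.26% over all genes. Glycolysis and hypoxia-linked genes held 5 lower and 2 higher calls among 26 (2 lower and 9 higher with total count scaling), among them Hif1a, which encodes the hypoxia factor (184 and 189 against 86.8 and 86.3, -1.11 ± 0.16). Of 21 genes of the tricarboxylic acid cycle 2 were called higher, again near that share. Idh1, the cytosolic isocitrate dehydrogenase, stood at 37.9 and 29.9 against 97.0 and 105 (1.57 ± 0.16, adjusted p = 0.00200).

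For some programs the answer depended on which WT-labelled library was read. Ribosome biogenesis genes had a median of 1.0 against WT-labelled replicate 1 and 0.13 against replicate 2, and DNA replication and division genes of 0.80 and -0.14. With both in the fit, 2 of 30 and 5 of 40 tested genes were called higher, where 9.26% of all genes tested were. Matrix metalloproteinases and their inhibitors had medians of 0.19 and -1.25 in the same order, and fibroblast markers of -0.14 and -3.64, with no fibroblast marker called. The antiviral effector, guanylate-binding protein, NF-kB, CXC and CC chemokine and sterol lists had the same sign against each library.

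**Figure D4:**
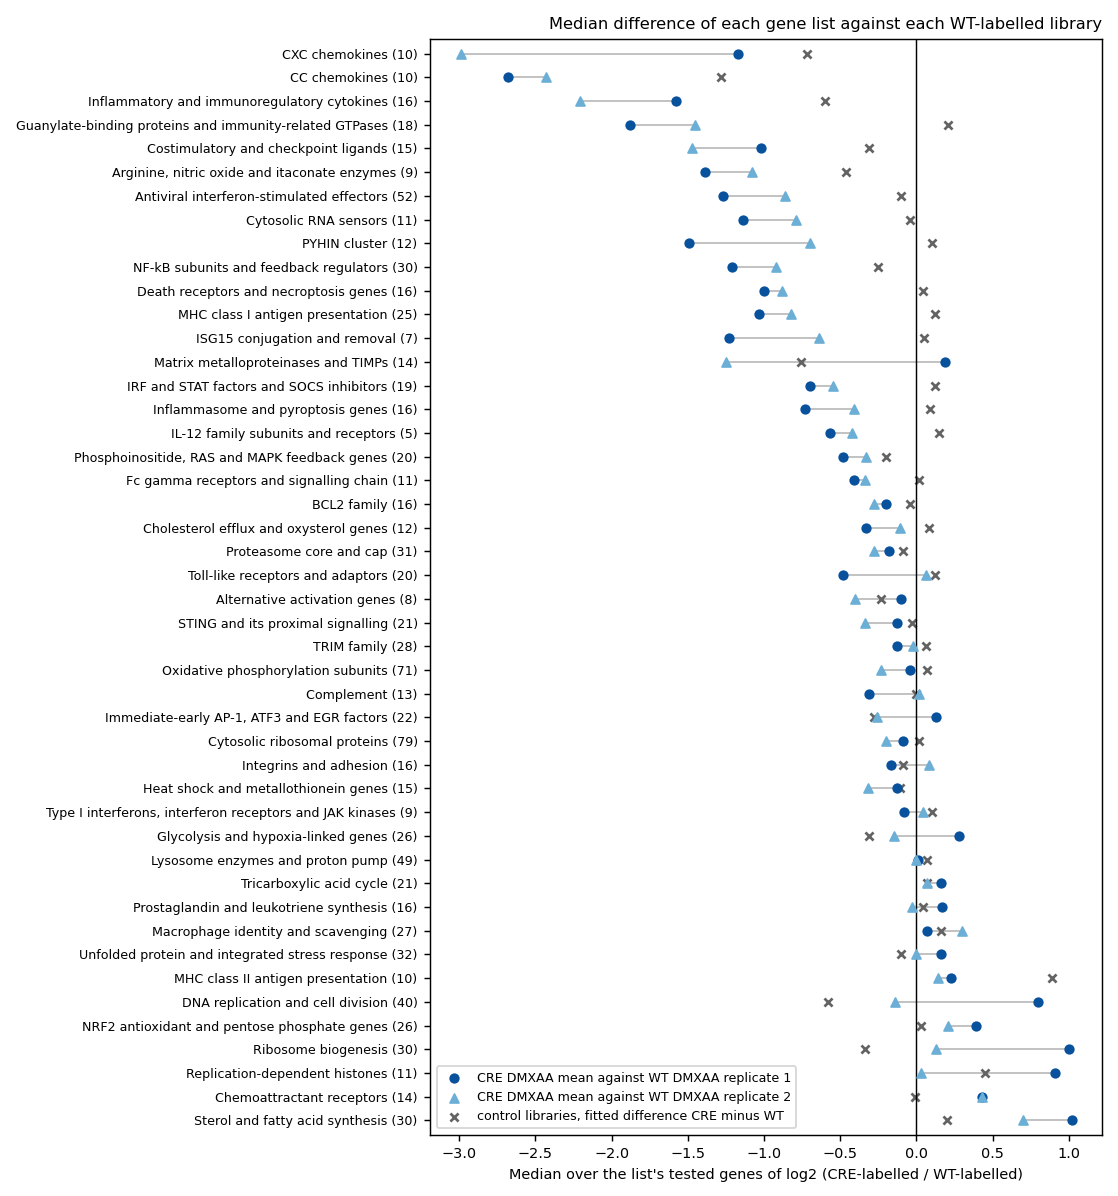
Median over each list's tested genes of log2 (CRE-labelled over WT-labelled): the mean of the CRE-labelled DMXAA libraries against WT-labelled DMXAA replicate 1 (dark circles) and replicate 2 (light triangles), with 0.5 added to each normalised CPM, and the fitted difference in the controls (crosses). The guanylate-binding protein list lies at -1.88 and -1.45 with a control value of 0.21, sterol synthesis at 1.02 and 0.70, and the ribosome biogenesis list at 1.0 and 0.13.

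Over all genes, the 5 largest falls among called genes that reached, as an average over the group in which they stood higher, an FPKM of 5 were those of Heatr9, Nos2, Ifnb1, Mir155hg and Cxcl11. Heatr9 was at 0 counts in both CRE-labelled libraries and at 12.3 and 5.17 normalised CPM in the WT-labelled ones, at least 51.2-fold lower against a floor of 3 counts per library. Mir155hg, the host transcript of microRNA-155, held 178 and 212 counts against 2 and 2, a ratio of 120.0 with an interval of 46.5 to 443. The 5 largest rises were those of Hist1h2al, Rps3a3, Rps3a2, Galnt9 and Rab3il1. Rab3il1, an exchange factor for Rab GTPases, stood at 5.21 and 6.43 normalised CPM against 82.3 and 84.7 (3.84 ± 0.31, adjusted p = 0.00114), and at 94.1 to 171 in the controls. Galnt9, a glycosyltransferase, stood at 0.632 and 1.76 against 18.4 and 20.7 (3.99 ± 0.40).

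The 3 other rises belong to annotated pseudogenes and were the same in control. Rps3a3 stood at 2.05 and 2.27 normalised CPM in the WT-labelled and 95.8 and 116 in the CRE-labelled DMXAA libraries, and at 1.65 and 3.13 against 121 and 126 in the controls. Rps3a2 behaved alike (2.77 and 2.21 against 88.4 and 103), while their parent gene Rps3a1 was lower (566 and 669.6 against 276 and 327, -1.03 ± 0.18). Hist1h2al was at 0 counts in all 4 WT-labelled libraries and at 10.1 and 10.5 normalised CPM in the CRE-labelled DMXAA libraries, at least 48.4-fold higher. All 5 genes called in control, these 3 with Gm3608 and Tpm3-rs7, were called higher under DMXAA too. Tpm3-rs7 stood at 109.8 and 77.2 against 349 and 386 and its parent Tpm3 at 1322 and 1063 against 609 and 612 (-0.97 ± 0.15). Reads of such near-identical copies can be split by the counting, so each of these values is uncertain.

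The scaling moved the balance of the calls. With library totals in place of TMM factors the median of all genes was 0.24 and 70.9% of the calls were higher, against 48.1% with TMM factors, which were 0.771 and 0.851 in the WT-labelled and 0.960 and 0.950 in the CRE-labelled DMXAA libraries. Relative to such a shift the lists of interferon effectors and chemokines remain lower, with 31 antiviral effectors, 15 guanylate-binding protein genes and 8 CC chemokine genes called lower, and 23 sterol genes were then called higher. The balance of calls turned from lower to higher for the STING and glycolysis lists, as given above, and for MHC class II (2 higher, 1 lower), Fc gamma receptor (2 and 1), respiratory chain (1 and 0), prostaglandin synthesis (5 and 2) and MAPK feedback genes (5 and 3), and in no list did it turn the other way.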

How the data were processed

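Polyadenylated RNA of BMDMs was extracted with TRIzol, made into libraries with the NEBNext Ultra kit and sequenced. Per the labels and the submitters' processing notes, base calls came from CASAVA 1.8, reads were trimmed with fastp, aligned to mm10 with HISAT2 2.0.5 and assigned to genes with featureCounts 1.5.0-p3. The handling of strand and of reads with several matches is not given in the sources used here, so near-identical copies and overlapping genes may share reads. The table deposited by the authors holds raw counts per gene and library and FPKM, which divides counts by transcript length and depth. It also holds the authors' group means, fold changes and p-values (made with DESeq2 1.20.0 per the notes), which were not used. Every per-sample column matched a sample, so 0 were left out for want of one.

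Samples were grouped by label. The members and the gene lists were chosen with earlier results of these data known. Counts of the 8 BMDM libraries numbered 1 and 2 were fitted in 1 model with a mean per group in edgeR 4.0.16 (R 4.3.3), with TMM scaling and quasi-likelihood F tests, over the 11569 genes whose deposited FPKM reached 1 in 2 or more libraries. A gene was called at a Benjamini-Hochberg adjusted p under 0.05 over all of these genes, and every adjusted p in the text is from this fit. The SE of a log2 fold change is its size divided by the square root of F. The procedure was tested on simulated counts drawn with the same spread for both labels, so that test does not cover the unequal spread described above. Each library held 16470157 to 18912887 counts, and 3 counts, the floor used for a gene at 0, correspond to 0.168 to 0.237 normalised CPM in the DMXAA libraries. Ratios of low counts have exact binomial intervals, which cover counting error only. Genes named by rule are 12 anchors, up to 4 genes per list with the largest difference among those called, without overlap and averaging an FPKM of 5 or more where they stood higher, and the 5 largest rises and falls, 161 tested genes in all. Other genes (such as Stat2, Irf9, Irf3, Mb21d1, Ifnar1, Rela, Nfkb1, B2m, Tap1, H2-K1, Cd74, Srebf2, Abca1, Csf1r, Ccl2 and Mlkl) were named for their role after their values were seen. Promoters are RefSeq sequences of GRCm38.p6, found for 127 of the 161. Alternatives were median of ratios and total count scaling, DESeq2 1.42.0, limma-voom (limma 3.58.1), no filter or a stricter one (FPKM of at least 5), other sets of libraries, a spread taken from WT-labelled libraries only, a minimum fold, a replicate block and leaving out each library. Total count scaling was added after the data were seen. Some genes are not reported here. The libraries of the other cells of the series were not analysed here.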

Additional observations from a re-analysis of the deposited data

How the results depend on the processing

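No named gene changed direction under any alternative that tested it except 1 (the stricter filter tested 157 of the 161). With all 12 BMDM libraries, of which those numbered 3 lack macrophage markers, Il6st (-0.73) and Rps28 (0.0088) reversed, 0 genes were called under DMXAA (0 higher, 0 lower) and 0 in control. Calls were also 0 in each of these counts when the WT-labelled libraries alone set the spread. With a log2 fold change of at least 1 required, 1299 genes were called, 563 higher and 736 lower, by construction of that rule. Total count scaling gave 2073 higher calls (850 lower), and DESeq2 gave 126 calls in control. The cause of the latter was not tested. Leaving out 1 library gave 313 to 3153 calls under DMXAA, 126 to 1489 higher and 180 to 1664 lower, and 2 to 215 in control. A group left with 1 library was assumed to vary like the others, and the lowest counts came without a CRE-labelled DMXAA library.

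Total calls under DMXAA stayed within 1.5 times of 2227 by DESeq2 (2899), limma-voom (2113), median of ratios scaling (2209, 40.5% of them higher), no filter (1880), a stricter filter (1888), the 4 DMXAA libraries alone (1802) and the replicate block (2479). The block changed no call of a named gene. The replicate numbers mark nothing that the labels state, and deviations of same-numbered libraries correlated at 0.656 between WT-labelled control and DMXAA but at 0.0389 between the labels under DMXAA, so a number links libraries within the WT label and is not shown to pair the labels. Depth limits genes such as Il1b and Il12b, which missed the filter.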

Other observations

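Genes in none of the lists, picked after their values were seen, add to both directions. Cd69, an early activation marker of leukocytes, stood at 1127 and 581 normalised CPM in the WT-labelled and 30.6 and 31.0 in the CRE-labelled DMXAA libraries (-4.79 ± 0.34, adjusted p = 0.00111), against 0.741 to 1.59 in the controls. Il15ra, which presents IL-15 on the cell surface, stood at 224 and 187 against 7.62 and 8.51 (-4.67 ± 0.21, adjusted p = 0.000529), so that cytokine and presenting chain were both lower. Calhm6, a membrane channel protein, stood at 420.4 and 319 against 16.9 and 14.8 (-4.54 ± 0.32), and Marcksl1, an actin regulator, at 1018 and 1057 against 48.8 and 50.3 (-4.39 ± 0.35). Clec4e, which encodes the glycolipid receptor Mincle, stood at 523 and 1150 against 36.5 and 33.5 (-4.58 ± 1.12, adjusted p = 0.0339), and its WT-labelled control replicate 2 held 246 where the other controls held 13.5 to 18.3.

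Among higher genes outside the lists, Etv5, an ETS factor induced by growth signals, stood at 8.45 and 8.0 normalised CPM in the WT-labelled and 73.7 and 73.1 in the CRE-labelled DMXAA libraries (3.16 ± 0.40, adjusted p = 0.00415), against 57.9 to 140.0 in the controls. Sesn1, a stress-response gene, stood at 3.08 and 6.55 against 45.9 and 48.9 (3.28 ± 0.53), and Id1, an inhibitor of helix-loop-helix factors, at 17.1 and 10.1 against 60.3 and 66.6 (2.23 ± 0.24). Rxra, the partner receptor of Pparg, was higher too (26.3 and 26.2 against 104 and 94.1, 1.91 ± 0.23), as was the GTPase gene Rhob (82.7 and 125 against 466 and 469, 2.17 ± 0.20). In these 5 genes the WT-labelled DMXAA libraries lay below all 4 controls. Dcstamp, a gene of osteoclast and giant cell fusion, differed in another way: it stood at 2.77 and 4.22 against 27.9 and 31.1 under DMXAA (3.07 ± 0.24, adjusted p = 0.00114) and at 6.93 and 8.68 against 27.5 and 25.1 in control, where it was not called.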
